A study of Homo sapiens with 6 samples.

Results

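The 8 genes described here run and regulate the polyamine pathway, and they were taken by symbol from the 57500 genes of the count tables. ODC1, AMD1, SRM and SMS encode the enzymes of synthesis, SAT1 the enzyme that starts breakdown, and OAZ1, OAZ2 and AZIN1 the antizymes and antizyme inhibitor that set how long ornithine decarboxylase lasts. Transcripts were counted in RNA from mitochondria isolated from HepG2 cells, an epithelial liver carcinoma line of wild-type genotype. Cells received the solvent DMSO alone (control, 0 µM) or GenX at 10 or 100 µM for 48 h, with 2 libraries per dose and 6 in all, every one of them in the same labelled batch. GenX, a short-chain ether acid with a perfluorinated carbon skeleton, is used in making fluoropolymers. The set was chosen by gene name after the counts, and the lower edgeR call of SAT1 at 10 µM against control, had been seen. The study asked how transcripts in the mitochondrial fraction differ between doses.

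Polyamines (putrescine, spermidine and spermine) are small positively charged amines that bind RNA and DNA and that growing cells need for translation. Ornithine decarboxylase makes putrescine, the spermidine and spermine synthases extend it with a group supplied through AMD1, and the acetyltransferase SAT1 marks the longer polyamines for export or oxidation. When polyamines are plentiful, ribosomes shift frame on antizyme mRNA and the antizyme made carries ornithine decarboxylase to the proteasome, while AZIN1 binds antizyme and keeps it from the enzyme. In the liver, SAT1 is known as a gene that toxic and metabolic stress can induce strongly.

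Libraries differed in depth, and this bears on every value below. Totals lay between 60854 and 240683 counts in control libraries, 29350 and 43556 with 10 µM GenX, and 1338397 and 2141282 with 100 µM, a 73.0-fold range. Genes encoded in mitochondrial DNA (mtDNA) took 4.35% and 10.4% of counts in control libraries, 43.7% and 61.1% with 10 µM GenX, and 3.58% and 3.32% with 100 µM. Levels are therefore given as CPM taken over the counts on nuclear genes alone (nuclear CPM), and 3 counts, the level below which a gene without counts may lie, stood at 13.0 and 55.0 nuclear CPM under DMSO, 122 and 263 after 10 µM and 1.45 and 2.32 after 100 µM GenX. The nuclear RNA MALAT1 made up 14.1% and 5.15% of nuclear counts in control libraries, 0.0694% and 0.114% with 10 µM GenX, and 2.99% and 2.69% with 100 µM. Among 13 liver markers, 8 and 8 had a count under DMSO, 9 and 4 after 10 µM and 12 and 11 after 100 µM GenX. Fibrinogen alpha (FGA) was at 0 in all 6 libraries, and AFP was at 0 in the controls and at 10 µM. Of 12 markers of fibroblasts, leukocytes and endothelium, PTPRC, CD3E, LUM and CDH5 were at 0 throughout, and the summed list was at 547 and 459 nuclear CPM under DMSO, 449 and 1140 after 10 µM and 59.1 and 81.9 after 100 µM GenX. It was thus lowest at the dose where ODC1, AMD1 and SMS were highest, and its part in those results was not tested. The labels do not say whether the 2 libraries of a dose came from separate cultures, so p-values measure the spread between these libraries, which may be technical. In bulk RNA, fewer cells and less RNA per cell cannot be told apart. All levels are shares of the RNA in the isolated mitochondrial fraction, not levels in whole cells. How much RNA from the rest of the cell came with the mitochondria was not tested. It cannot be told apart here from a difference within the cells.

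The antizyme genes carry the sequence at which ribosomes change frame, shown here because it sets OAZ1 and OAZ2 apart from the other 6 genes. The 30-base windows were read from GENCODE v29 transcripts and placed on GRCh38 by their exons. They lie at chr19:2271429-2271458 on the plus strand for OAZ1 and chr15:64691500-64691529 on the minus strand for OAZ2. Capitals mark the last codon of the first frame and the stop codon that follows it.
OAZ1: ctcggtggtgcTCCTGAtgcccctcaccca
OAZ2: ctctgtggtgcTCCTGAtgcccctcaccca
The windows shared 29 of 30 bases, and in GENCODE v29 they lay in 7 transcripts of OAZ1 and 5 of OAZ2. Both coding models leave out 1 base within the stop codon, at position 15 of the window (base 2271443 of chromosome 19 and base 64691515 of chromosome 15). That omission is how the annotation writes the shift of frame. Counts per gene do not tell whether ribosomes shifted.

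Promoters are shown for SAT1 and ODC1, the genes with the widest spread of levels across the doses. They are RefSeq windows of GRCh38.p14, 250 bases before to 50 after an annotated start, at chrX:23782923-23783222 on the plus strand for SAT1 and chr2:10448278-10448577 on the minus strand for the first start of ODC1. Capitals mark matches to 4 motifs searched on both strands.
SAT1: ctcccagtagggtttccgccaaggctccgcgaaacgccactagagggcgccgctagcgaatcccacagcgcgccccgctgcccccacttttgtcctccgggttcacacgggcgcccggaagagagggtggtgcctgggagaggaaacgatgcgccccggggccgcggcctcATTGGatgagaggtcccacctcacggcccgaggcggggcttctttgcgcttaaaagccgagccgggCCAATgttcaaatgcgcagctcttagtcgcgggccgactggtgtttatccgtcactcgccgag
ODC1: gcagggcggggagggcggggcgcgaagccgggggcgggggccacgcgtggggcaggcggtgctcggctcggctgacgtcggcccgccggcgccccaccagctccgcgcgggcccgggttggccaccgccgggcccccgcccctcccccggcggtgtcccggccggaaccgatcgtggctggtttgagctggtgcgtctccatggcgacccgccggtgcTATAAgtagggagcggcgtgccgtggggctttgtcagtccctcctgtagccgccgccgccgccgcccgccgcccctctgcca
The motifs were the E-box CACGTG, the cyclic AMP response element TGACGTCA, the CCAAT box and the TATA element TATAA, which were present in 7.26%, 1.85%, 34.6% and 20.4% of 35116 promoter windows of the same length. SAT1 held 2 CCAAT boxes, 1 on each strand, and the ODC1 window held 1 TATA element at base -32 from the start. The window of the second ODC1 start held 2 E-boxes, at bases -29 and 5. Promoter entries were found for 7 of the 8 genes, 10 windows in all, with an E-box in 2, a CCAAT box in 5, a TATA element in 4 and the cyclic AMP response element in 0. These matches describe the letters only.

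ODC1, AMD1 and SMS had most of their counts in the deep 100 µM libraries, as the antizyme genes did. ODC1 (ENSG00000115758, chr2:10439968-10448504), the enzyme that makes putrescine and is usually rate-limiting, had 1 and 0 counts in control libraries, 0 and 0 with 10 µM GenX, and 1446 and 1380 with 100 µM. Both 100 µM libraries therefore stood apart from the other 4, in which a single ODC1 count was found. In nuclear CPM the level was 4.34 and 0 under DMSO, 0 and 0 after 10 µM and 700.4 and 1066 after 100 µM GenX, where ODC1 ranked 192 and 106 among nuclear genes. Had the controls held ODC1 at the mean 100 µM share, 203 and 48.1 counts would have been seen, and at 10 µM 21.6 and 10.1 counts, so a share of that size would have been seen at these depths.

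Pooled over the libraries of a dose, ODC1 was 240-fold higher at 100 µM than in the controls, with an exact 95% counting interval of 43.0 to 9466 set by the single control count. Against 10 µM, where no count was seen, it was at least 10.1-fold higher, taking 3 counts over that dose. Such bounds account for counting error alone, since no molecular identifiers are stated. In edgeR's quasi-likelihood test on all 6 libraries, with Benjamini-Hochberg adjustment over 3180 genes, the difference between 100 µM and control had an adjusted p of 0.204. The fitted log2 fold change was 7.35 ± 2.06 (SE), and 5.97% of the genes tested had a higher one. Fitted changes are on the TMM scale over all genes and pooled ratios are on the nuclear share, so both can differ for a gene. DESeq2's Wald test gave a log2 change of 6.76 and an adjusted p of 0.00732, and adjusted p ranged from 0.00732 to 1 over the alternatives tried, so the call depends on the tool. At 100 against 10 µM the adjusted p of ODC1 was 0.0989 in edgeR and 0.0193 in DESeq2, in a range of 0.0163 to 0.432 over the alternatives. ODC1 passed the filter that leaves out genes with low counts only through the 100 µM libraries, where it is high. Its p-values, calls and rank among fitted changes are therefore given as a description. ODC1 overlaps SNORA80B on the same strand.

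AMD1 (ENSG00000123505, chr6:110874770-110895713), which makes the decarboxylated S-adenosylmethionine that both aminopropyl transfers use, had 5 and 2 counts in control libraries, 0 and 0 with 10 µM GenX, and 452 and 232 with 100 µM. Its level was 21.7 and 36.7 nuclear CPM in the controls and 219 and 179 at 100 µM, so the 2 doses did not overlap. The pooled share was 8.28-fold higher at 100 µM than in the controls (counting interval 4.0 to 20.7) and at least 2.44-fold higher than at 10 µM. The fitted log2 change of AMD1 at 100 µM against control was 2.29 ± 1.37 (edgeR adjusted p = 0.393). AMD1 also passed the filter on low counts only through the 100 µM libraries. The absence of counts at 10 µM was not informative against the controls, since their mean share predicted 0.716 and 0.333 counts there.

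SMS (ENSG00000102172, chrX:21940573-21994835), spermine synthase, had 24 and 5 counts under DMSO, 2 and 0 after 10 µM and 730 and 342 after 100 µM GenX. The levels were 104 and 91.7 nuclear CPM in control libraries, 81.6 and 0 with 10 µM GenX, and 353.6 and 264 with 100 µM, and both 100 µM libraries lay above the other 4. Pooled SMS was 3.13-fold higher at 100 µM than in the controls (2.17 to 4.70) and 5.73-fold higher than at 10 µM (1.58 to 47.4). In edgeR the log2 change of SMS was 1.05 ± 1.55 at 100 µM against control (adjusted p = 0.738) and 3.14 ± 1.84 at 100 against 10 µM (adjusted p = 0.209). The difference between 10 µM and control, -2.09 ± 1.83, also missed the threshold (edgeR adjusted p = 0.427).

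SRM (ENSG00000116649, chr1:11054584-11060024), spermidine synthase, was nearly uncounted in every library. It had 1 and 0 counts under DMSO, 0 and 1 after 10 µM and 2 and 1 after 100 µM GenX. At 100 µM these counts amount to 0.969 and 0.773 nuclear CPM, under the level of 3 counts there, and no fold is given. SRM therefore stood apart from SMS, the other aminopropyl transferase, which had 730 and 342 counts in the same 100 µM libraries. SRM was the only 1 of the 8 genes left out by the filter on low counts. The tables list 6 pseudogenes of AMD1 and SRM, and their counts summed to 0.

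**Figure D1:**
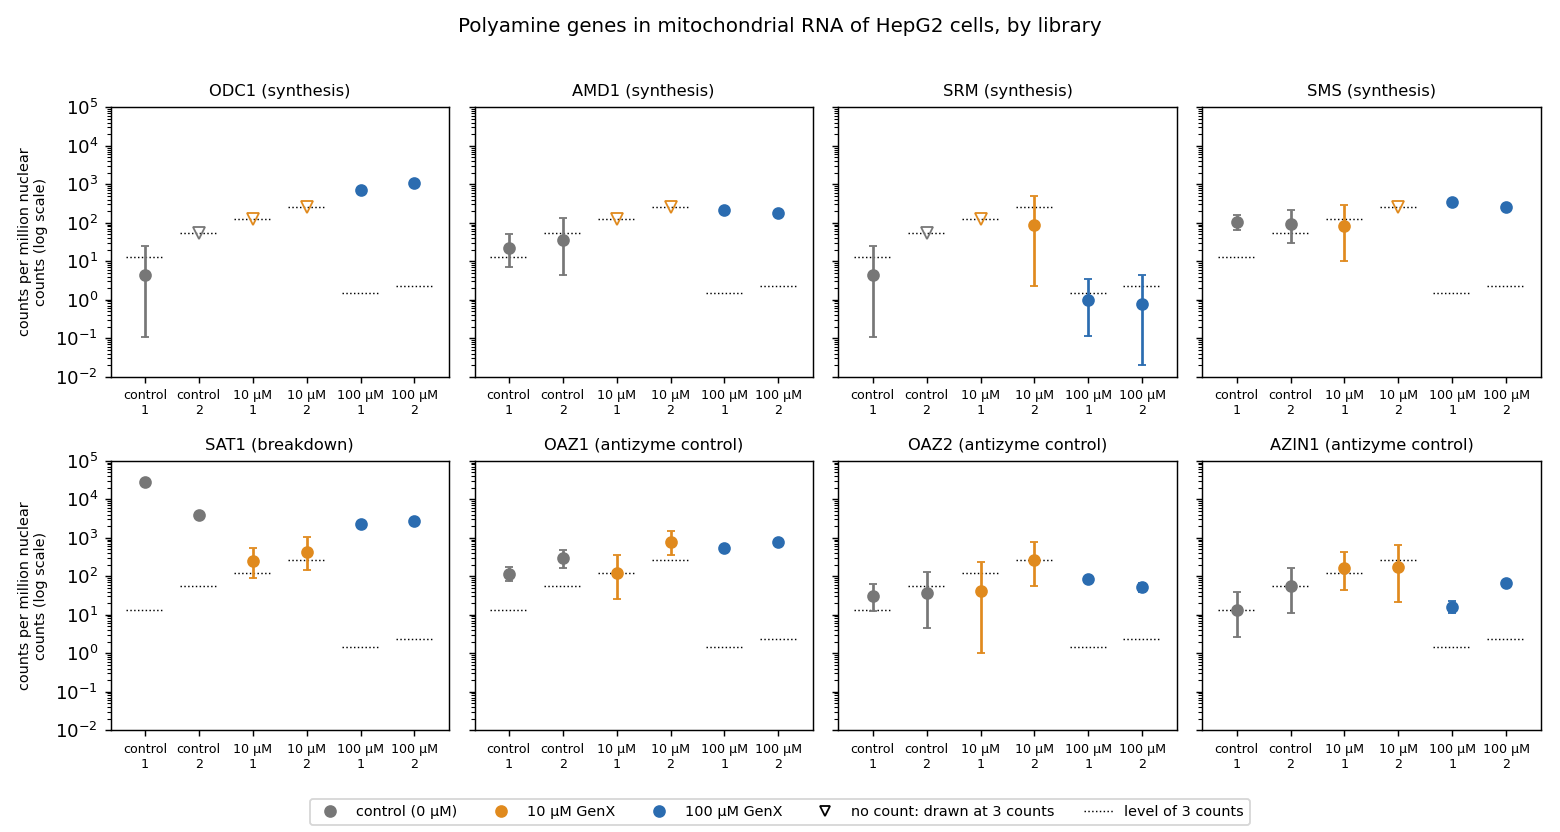
Level of each polyamine gene in each library, in nuclear CPM on a log axis, with exact 95% binomial intervals, open triangles for libraries without a count and dotted lines at 3 counts. ODC1 reaches 700.4 and 1066 at 100 µM with 1 count in the other 4 libraries, and SAT1 is lowest at 10 µM, at 245 and 438.

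SAT1 (ENSG00000130066, chrX:23783173-23786226), the acetyltransferase that starts polyamine breakdown, was the most abundant of the 8 genes in both controls and at 100 µM. It had 6636 and 216 counts in control libraries, 6 and 5 with 10 µM GenX, and 4830 and 3428 with 100 µM. Its share of nuclear counts was 2.88% and 0.396% under DMSO, 0.0245% and 0.0438% after 10 µM and 0.234% and 0.265% after 100 µM GenX. The 3 doses did not overlap, but the 2 controls stood further apart than the 2 libraries of either GenX dose. Among nuclear genes SAT1 ranked 2 and 20 in control libraries, 1111 and 540 with 10 µM GenX, and 24 and 20 with 100 µM.

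SAT1 was included with its lower call at 10 µM against control known, so that comparison is given as a description. The pooled share at 10 µM was 0.0127 of that in the controls, and the control share was 78.6 times that at 10 µM (43.9 to 157). The mean control share would have given 402 and 187 counts in the 10 µM libraries, where 6 and 5 were seen. The fitted log2 change was -7.12 ± 1.15, and 70.0% of the genes tested had a higher one. Without the first control library it was -4.50. Without the first or the second 10 µM library SAT1 was no longer called, at -6.96 and -7.21, nor was it with mtDNA genes left out, at -7.15.

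The other comparisons of SAT1 share libraries with that one. At 100 µM against control its pooled share was 0.102 of the control share, and the log2 change of -3.50 ± 0.95 missed the threshold (edgeR adjusted p = 0.204, 0.00419 to 1 over the alternatives). This value rests on the first control library, since SAT1 was at -0.88 without it and at -4.26 without the second. With the replicate number as a block the change of SAT1 was -2.99, with an edgeR adjusted p of 0.00419, and DESeq2 gave an adjusted p of 0.0329. Same-numbered libraries did not deviate together, so the number is not taken as a pairing and nothing is read from the block fits of SAT1. At 100 against 10 µM the pooled share of SAT1 was 8.03-fold higher (4.48 to 16.1). The fitted change of 3.62 ± 0.99 (edgeR adjusted p = 0.0824) was close to the median of all genes, 3.52, and 49.2% of genes had a higher one. With the block it was 3.69, with an edgeR adjusted p of 6.41e-06, in a range of 6.41e-06 to 0.295 over the alternatives. Without the first or the second control library it was called as well, at 3.62 and 3.71. MALAT1 followed the same order of doses as SAT1, highest in the controls and lowest at 10 µM, and the summed liver markers were also lowest at 10 µM, at 857 and 614 nuclear CPM, against 8692 and 21522 in the controls. Their part in the SAT1 result was not tested.

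The antizyme genes were counted at every dose, as SMS and SAT1 were. OAZ1 (ENSG00000104904, chr19:2269509-2273490), the main antizyme of most tissues, had 27 and 16 counts in control libraries, 3 and 9 with 10 µM GenX, and 1092 and 998 with 100 µM. In nuclear CPM these were 117 and 294 under DMSO, 122 and 789 after 10 µM and 529 and 771 after 100 µM GenX. The 100 µM libraries lay above the controls, while the 10 µM libraries overlapped both other doses. Pooled OAZ1 was 2.21-fold higher at 10 µM than in the controls (1.06 to 4.27), 4.12-fold higher at 100 µM than in the controls (3.05 to 5.71) and 1.86-fold higher at 100 than at 10 µM (1.06 to 3.61).

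In edgeR, which takes in the spread between libraries, the log2 change of OAZ1 was -0.22 ± 1.40 at 10 µM against control (adjusted p = 0.940), 1.25 ± 1.36 at 100 µM against control (adjusted p = 0.644) and 1.46 ± 1.40 at 100 against 10 µM (adjusted p = 0.420). The sign at 10 µM turned to 0.23 with DESeq2 size factors and to 0.12 with library sizes alone. OAZ1 overlaps AC005258.1 on the same strand and JSRP1 on the other, and the strand setting of the counting is not given in the sources used here.

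OAZ2 (ENSG00000180304, chr15:64687573-64703281), a second antizyme, had 7 and 2 counts in control libraries, 1 and 3 with 10 µM GenX, and 176 and 66 with 100 µM. Its level was 30.4 and 36.7 nuclear CPM under DMSO, 40.8 and 263 after 10 µM and 85.2 and 51.0 after 100 µM GenX. Both 100 µM libraries lay above the controls. The 10 µM values rest on 1 and 3 counts, where the mean control share predicted 0.822 and 0.383, so no order is read from them. The pooled share was 3.52-fold higher at 10 µM than in the controls with an interval of 0.793 to 12.6, and 2.28-fold higher at 100 µM than in the controls (1.18 to 5.05). The edgeR log2 changes of OAZ2 were 0.64 ± 1.43 at 10 µM against control, 0.46 ± 1.25 at 100 µM against control and -0.18 ± 1.34 at 100 against 10 µM, with adjusted p of 0.771, 0.867 and 0.926. The sign of OAZ2 at 100 µM against control was not stable, at -0.0044 with DESeq2 size factors. OAZ2 overlaps 3 genes on the other strand.

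AZIN1 (ENSG00000155096, chr8:102826357-102893864), the antizyme inhibitor, had 3 and 3 counts in control libraries, 4 and 2 with 10 µM GenX, and 33 and 85 with 100 µM. It was the only one of the 8 genes whose nuclear CPM was higher in both 10 µM libraries, at 163 and 175, than in the other 4, which held 13.0 and 55.0 under DMSO and 15.98 and 65.7 with 100 µM GenX. The 10 µM values rest on 4 and 2 counts, and the second is under the level of 3 counts. AZIN1 passed the filter on low counts only through the 10 µM libraries, so no order is read from them. The pooled share was 7.93-fold higher at 10 µM than in the controls (2.12 to 29.7), and at 100 µM it was 0.210 of that at 10 µM (0.0938 to 0.585) and 1.67 times that of the controls (0.744 to 4.63). In edgeR the log2 change of AZIN1 was 1.41 ± 1.48 at 10 µM against control (adjusted p = 0.510), 0.01 ± 1.32 at 100 µM against control (adjusted p = 0.999) and -1.40 ± 1.36 at 100 against 10 µM (adjusted p = 0.430). With DESeq2 size factors AZIN1 was at -0.45 at 100 µM against control. Overlapping genes on the other strand include AZIN1-AS1.

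Over the 7 genes tested, the count of calls was small in each comparison. At 10 µM against control 1 of 7, SAT1, was called, beside 0.597% of all 3180 genes. It was called lower, as 0.377% of genes were, and 0 of 7 were called higher, as 0.22% were. Since that call was known when SAT1 was chosen, nothing is read from it. At 100 µM against control edgeR called 0 of 7, and 0% of all genes, with 2 of 7 (ODC1 and SAT1) and 18% of all genes at an unadjusted p under 0.05. DESeq2 called both of those genes, beside 7.67% of all genes. It gave no adjusted p for 802 of the 3180 genes in this comparison, AMD1 among them, and such genes count as not called. ODC1 and AMD1 passed the filter on low counts only through the 100 µM libraries, so nothing is read from their p-values or calls at that dose. At 100 against 10 µM edgeR called 0 of 7, where it called 2.86% of all genes (0.755% higher and 2.11% lower). At an unadjusted p under 0.05 in edgeR were 3 of 7 (ODC1, AMD1 and SAT1) and 36.2% of all genes. DESeq2 called ODC1, beside 12% of all genes, and gave no adjusted p for 1048 of the 3180. The median fitted log2 change of the 7 genes was -2.09 at 10 µM against control, where that of all genes tested was -3.18. It was 1.05 at 100 µM against control and 3.14 at 100 against 10 µM, where those of all genes were 0.35 and 3.52. ODC1 and AMD1 had no count at 10 µM, so their fitted changes there depend on the prior count. On the scale of pooled nuclear shares the median log2 ratio was 1.29 at 100 against 10 µM with these 2 genes at their lower bounds. It was 1.15 at 10 µM against control over the other 5 genes, since neither gene has a bound there. That value covers only genes counted at 10 µM, so no direction is read from it. No median of all genes was taken on this scale.

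Genes whose libraries did not overlap between doses were counted in nuclear CPM. At 10 µM against control SAT1, which was chosen by that comparison, had both libraries below both controls, as 32% of 3145 nuclear genes did. AZIN1 had both above, as 11.1% did. It had 4 and 2 counts there and passed the filter on low counts only through the 10 µM libraries, so no order is read. AMD1 and SMS also lay below and OAZ2 above, but no order is read for these 3 genes, since at most 3 counts were seen in a 10 µM library and the mean control shares predicted at most 2.40. At 100 µM against control ODC1, AMD1, SMS, OAZ1 and OAZ2 lay above both controls, as 48.3% of genes did, and SAT1 lay below, as 9.57% did. At 100 against 10 µM ODC1, AMD1, SMS and SAT1 lay above, as 63.8% did. AZIN1 lay below, as 7.63% did, and again no order is read for it. ODC1 and AMD1 passed the filter on low counts only through the 100 µM libraries, so lying above was tied to their being kept. The comparisons share libraries, and the counts above are not independent of each other.

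**Figure D2:**
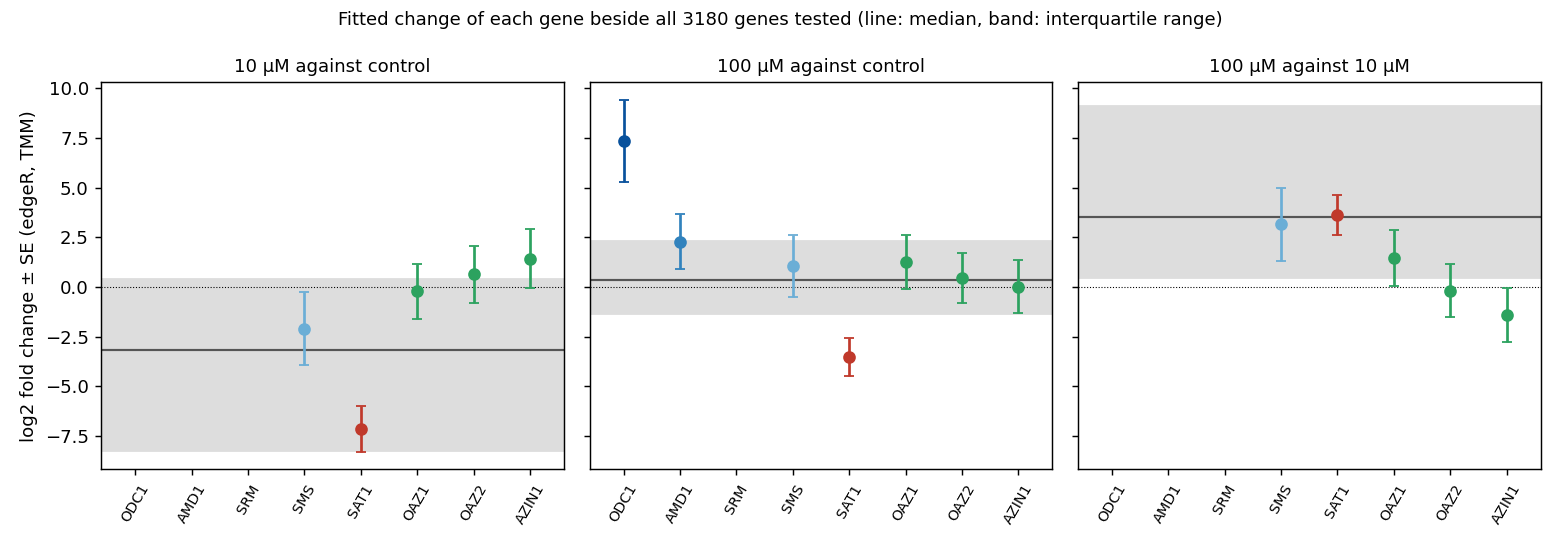
Fitted log2 fold change ± SE of the polyamine genes in each comparison, with the median (line) and the interquartile range (band) of all 3180 genes tested; genes with no count in either library of 1 group, and SRM, have no point. ODC1 at 7.35 and SAT1 at -3.50 stand outside the band at 100 µM against control, where the median is 0.35.

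Summed by role, synthesis was at 132 ± 4.40 nuclear CPM under DMSO, 84.6 ± 4.28 after 10 µM and 1392 ± 168 after 100 µM GenX (SD, n = 2 each). Breakdown, that is SAT1, was at 16395 ± 17581 nuclear CPM under DMSO, 342 ± 137 after 10 µM and 2494 ± 219 after 100 µM GenX (SD, n = 2 each). The antizyme control genes (the antizymes OAZ1 and OAZ2 and the inhibitor AZIN1) together were at 273 ± 159 nuclear CPM under DMSO, 777 ± 637 after 10 µM and 759 ± 182 after 100 µM GenX (SD, n = 2 each). With all counts as the denominator the sums at 10 µM were lower, at 40.0 CPM for synthesis, 154 for SAT1 and 330 for the antizyme control genes. On that scale the antizyme control sum was 249 CPM under DMSO and 733 after 100 µM GenX, so its nearness to the 100 µM sum at 10 µM depends on the denominator. The 2 synthesis sums at 10 µM came from 2 SMS counts in the first library and 1 SRM count in the second, so their small SD does not reflect agreement between genes. No p is given for these sums, since the genes were chosen with results known.

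The split of counts among the 8 genes does not depend on the mtDNA share or on total depth. SAT1 took 99.0% and 88.5% of the 8 genes' counts in control libraries, 37.5% and 25% with 10 µM GenX, and 55.1% and 52.5% with 100 µM. Behind these shares were 6704 and 244 counts under DMSO, 16 and 20 after 10 µM and 8761 and 6532 after 100 µM GenX. At 10 µM the exact binomial intervals of the SAT1 share were 15.2% to 64.6% and 8.66% to 49.1%, and in the controls they were 98.7% to 99.2% and 83.8% to 92.2%. These intervals cover counting error only and describe the contrast by which SAT1 was chosen, so nothing is read from their order. Libraries of 1 dose differed by far more than counting error, with a chi-square of 39.4 per degree of freedom in the controls and 12.9 at 10 µM. Synthesis took 0.462% and 2.87% in control libraries, 12.5% and 5% with 10 µM GenX, and 30.02% and 29.9% with 100 µM. The antizyme control genes took 0.552% and 8.61% under DMSO, 50% and 70% after 10 µM and 14.8% and 17.6% after 100 µM GenX. At 10 µM the inhibitor AZIN1, which is not an antizyme, supplied 25% and 10%. At 100 µM ODC1 alone made up 16.5% and 21.1%.

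**Figure D3:**
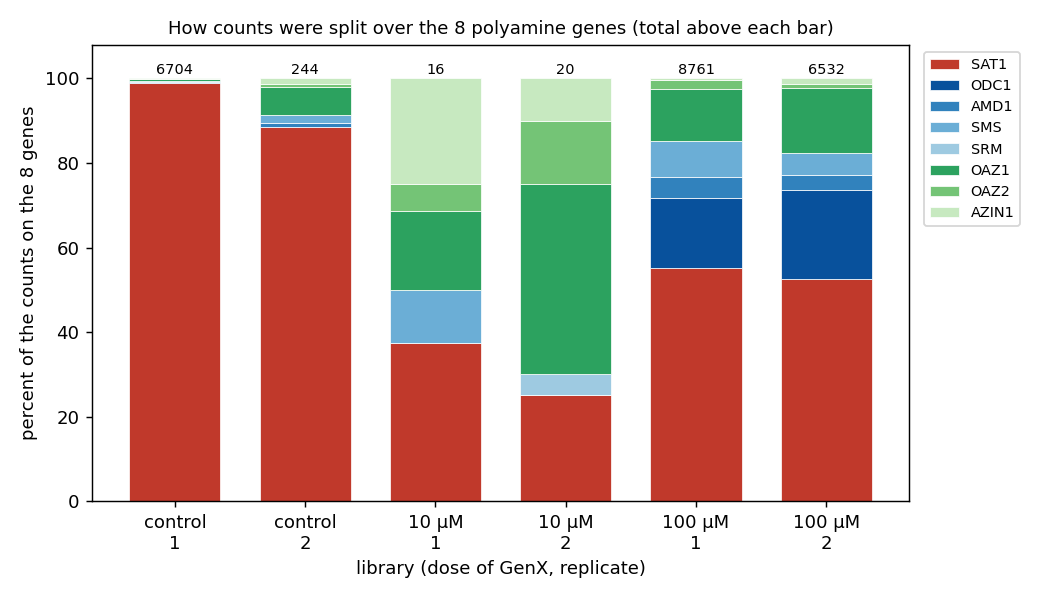
Share of the 8 genes' counts taken by each gene in each library, in percent, with the total of those counts above each bar. SAT1 fills 99.0% and 88.5% of the control bars and 55.1% and 52.5% of the 100 µM bars, where ODC1 adds 16.5% and 21.1%, while the 10 µM bars rest on 16 and 20 counts.

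Synthesis and antizyme control genes (OAZ1, OAZ2 and AZIN1) were also set against each other with SAT1 left out. Synthesis made up 45.6% and 25% of the counts on both roles in the controls (33.5% to 58.1% and 10.7% to 44.9%), and 20.0% and 6.67% at 10 µM (2.52% to 55.6% and 0.169% to 31.9%). At 100 µM it made up 66.9% and 63.0% (65.4% to 68.4% and 61.3% to 64.7%). Both 100 µM values lay above the intervals of the other 4 libraries, which cover counting error only. ODC1 supplied 1446 of 2630 and 1380 of 1955 synthesis counts at 100 µM. ODC1 and AMD1 passed the filter on low counts only through those libraries, so nothing is read from this order. The intervals of the first control and the second 10 µM library did not overlap, and those of the other 3 pairs of a 10 µM library and a control did. In the controls AMD1 and SMS supplied 29 of 31 synthesis counts in the first library and 7 of 7 in the second.

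Levels between genes were compared per kilobase of the deposited gene length within a library. At 100 µM SAT1 was 3.97 and 2.95 times ODC1 and 6.08 and 4.72 times OAZ1, whereas in the controls SAT1 was 338 and 18.6 times OAZ1. At 10 µM SAT1 was 2.75 and 0.764 times OAZ1, from 6 and 5 counts of SAT1 and 3 and 9 of OAZ1. The libraries differed in direction, and neither is settled, since SAT1 made up 66.7% and 35.7% of the counts on both genes with intervals of 29.9% to 92.5% and 12.8% to 64.9%. ODC1 was 1.53 and 1.60 times OAZ1, 1.44 and 2.94 times SMS and 7.57 and 14.1 times AMD1 per kilobase at 100 µM. OAZ1 was 13.9 and 33.8 times OAZ2 at 100 µM, and 8.61 times in the first control.

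A wider list of 30 genes held other enzymes, carriers and partners of the pathway. The list had a count for 14 and 9 genes in control libraries, 8 and 7 with 10 µM GenX, and 24 and 23 with 100 µM, and 8 of the 30 passed the filter on low counts. EdgeR called 0 of these 8 in any comparison, with smallest adjusted p of 0.211 at 10 µM against control, 0.204 at 100 µM against control and 0.0836 at 100 against 10 µM. At an unadjusted p under 0.05 there were 0, 3 and 4 of the 8 genes in that order, beside 28.1%, 18% and 36.2% of all genes. DESeq2 called 0, 1 (SLC3A2, higher) and 2 (SLC3A2, higher, and EIF5A, lower) of them, beside 17.4%, 7.67% and 12% of all genes. These shares are of all 3180 genes, of which 1418, 802 and 1048 in that order had no adjusted p from DESeq2 and count as not called. Median fitted log2 changes were -0.96, 3.06 and 4.85, beside -3.18, 0.35 and 3.52 over all genes tested. Of the genes kept, OAT, ATP13A3, ADI1 and GOT1 passed the filter on low counts only through the 100 µM libraries. No direction is therefore read from the p-values and medians of this list in comparisons with 100 µM. In pooled nuclear shares, genes at 0 in the lower group were set at their lower bounds. The median log2 ratio was 3.55 at 100 µM against control over 8 genes, 2 of them at bounds. At 100 against 10 µM it was 0.97 over 8 genes, 3 of them at bounds. At 10 µM against control it was 2.99 over the 3 genes with a ratio, SLC3A2 (0.240), EIF5A (7.93) and AHCY (31.7). The other 5 had too few counts for a ratio, so no direction is read from that median. No median of all genes was taken on this scale.

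The 4 genes of that list with the highest mean CPM are named here. SLC3A2, the heavy chain of amino acid transporters and a partner in polyamine transport, had 26 and 7 counts in control libraries, 1 and 0 with 10 µM GenX, and 2634 and 2162 with 100 µM, and its pooled share was 12.3-fold higher at 100 µM than in the controls (8.76 to 17.9). Its edgeR log2 change at 100 against 10 µM was 6.36 ± 1.76 (adjusted p = 0.0836). ADI1, an enzyme of the methionine salvage that follows spermidine and spermine synthesis, had 5 and 0 counts under DMSO, 0 and 0 after 10 µM and 366 and 288 after 100 µM GenX, and its pooled share was 11.1-fold higher at 100 µM than in the controls (4.73 to 34.3). ADI1 passed the filter on low counts only through the 100 µM libraries, so its values are given as a description. Like ODC1, AMD1 and SMS, SLC3A2 and ADI1 were highest at 100 µM, which was common among all genes. Both 100 µM libraries lay above both controls for 48.3% of 3145 nuclear genes, and above both 10 µM libraries for 63.8%.

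EIF5A, the translation factor that carries hypusine made from spermidine, had 18 and 17 counts in control libraries, 19 and 16 with 10 µM GenX, and 434 and 282 with 100 µM. In nuclear CPM it was highest at 10 µM, at 775 and 1403, against 78.2 and 312 in the controls, and at 100 µM it was 210.2 and 218. AHCY, which clears S-adenosylhomocysteine in the methionine cycle, had 2 and 6 counts under DMSO, 3 and 29 after 10 µM and 175 and 105 after 100 µM GenX. The 10 µM libraries of AHCY stood apart from each other, at 122 and 2543 nuclear CPM. In edgeR neither gene passed the threshold at 10 µM against control, with EIF5A at 1.38 ± 1.36 (adjusted p = 0.481) and AHCY at 3.28 ± 1.83 (adjusted p = 0.234).

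Patterns across the 6 libraries were compared with SAT1 and OAZ1 by Pearson's r of log2 CPM over 3144 other nuclear genes, as a description over 6 points that share depth and scaling within a library. Most like SAT1 were ABAT, a mitochondrial aminotransferase (r = 0.998), the endoplasmic reticulum disulfide isomerase PDIA4 (0.991), the collagen galactosyltransferase COLGALT2 (0.988), the RNA-binding protein gene RBM6 (0.988) and the receptor kinase TIE1 (0.988). ABAT had 120 and 5 counts in control libraries, 0 and 0 with 10 µM GenX, and 96 and 70 with 100 µM. Among the polyamine genes SAT1 correlated at 0.64 with AMD1, 0.62 with SMS, 0.22 with ODC1 and 0.18 with OAZ1, and at -0.18 with OAZ2 and -0.69 with AZIN1.

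Most like OAZ1 were ATP5MC2, which encodes a membrane subunit of ATP synthase (r = 0.994), the proton pump subunit ATP6V1H (0.988), CTNNBL1 (0.987), the translation release factor ETF1 (0.986) and the small GTPase RHOA (0.985). ATP5MC2 had 2 and 2 counts under DMSO, 0 and 1 after 10 µM and 248 and 233 after 100 µM GenX, and RHOA had 8 and 5 counts in control libraries, 1 and 3 with 10 µM GenX, and 517 and 441 with 100 µM. Among the polyamine genes OAZ1 correlated at 0.72 with ODC1, 0.70 with AMD1, 0.50 with OAZ2, 0.18 with SMS, 0.18 with SAT1 and -0.36 with AZIN1. The closest of these, ODC1 and AMD1, ranked 415 and 556 among the 3144 genes.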

How the data were processed

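RNA from the mitochondrial fraction of HepG2 cells was sequenced in 6 libraries. The authors deposited unnormalized read counts per gene, 1 table for each library. Mitochondria were isolated with a kit, RNA was extracted with TRIzol, and ribosomal RNA was depleted before stranded libraries were made, per the labels' protocols. FastQC, STAR, featureCounts, DESeq2 and the GRCh38 build are named, with no version or setting, per the submitters' processing notes. Which annotation release, strand setting and overlap rule were used is not given in the sources used here, and these can change the counts of the genes that overlap others.

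Symbols came from GENCODE v29, which held 56898 of 57500 identifiers and gave all 8 genes the same start and end as the tables. No line lacked a gene, and 0 columns were left without a sample. Groups and replicate numbers came from the sample titles. A chi-square comparison of the 2 libraries of a dose, on genes of 10 counts or more, gave 39.4 per degree of freedom for DMSO, 12.9 for 10 µM and 35.2 for 100 µM GenX, far above sampling noise, so all 6 libraries were kept as separate samples.

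The genes and lists were chosen with earlier results of these data known. Named genes were the 8 members, the 4 genes of the wider list with the highest mean CPM, and the 5 nuclear genes most like SAT1 and OAZ1 by Pearson's r of log2 CPM with a prior count of 2. Shares carry exact 95% binomial intervals, and ratios of pooled counts carry exact 95% counting intervals. Differences were tested with edgeR 4.0.16 (R 4.3.3) after filterByExpr (3180 genes kept) and TMM scaling, by robust quasi-likelihood fits of all 6 libraries as group means, two-sided tests of 3 comparisons and Benjamini-Hochberg adjustment over all genes tested, at 0.05. This fit gives the groups 1 shared estimate of the spread. Scripts were tested on simulated data. DESeq2 1.42.0, scipy 1.17.1, pandas 2.3.3, numpy 2.4.6 and matplotlib 3.10.9 under Python 3.11.15 were also used. Alternatives were other scalings, tables without mtDNA genes, DESeq2, other filters on low counts, only the 4 libraries compared, a replicate block, other denominators of the shares and leaving out each library. Sequences were read from GENCODE v29 transcripts and from RefSeq promoter windows of GRCh38.p14. Protein sequences were not used here.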

Additional observations from a re-analysis of the deposited data

How the results depend on the processing

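The fold changes of the tested polyamine genes were recomputed 235 times over 17 pairs of gene and comparison. Of these, 203 kept both their direction and their side of the threshold, where an alternative without an adjusted p counted as not passing. A further 9 passed it although the reported fit did not, and 3 (all SAT1 at 10 µM against control) no longer passed. The other 20 turned sign, each of OAZ1, OAZ2 or AZIN1, with a change within its SE or resting on 4 or fewer counts in a library. The cause of these changes was not tested. These leave out the 4 pairs of ODC1 and AMD1 that involve 10 µM, where neither had a count. Of those, ODC1 at 100 against 10 µM passed in 5 of 14 alternatives (DESeq2, a mean of at least 5 CPM, the 4 libraries compared, and without either control library), AMD1 there passed in 2 of 14 (the 4 libraries compared and without the second control, adjusted p of 0.0468 to 0.432 over the alternatives), and the 2 at 10 µM against control passed in none of the 14. The counts of called genes depended on the setting, from 0 to 797 besides leaving out a library. Depth limits the 10 µM values most, with 16 and 20 counts over the 8 genes.

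At 10 µM against control, 19 genes were called as reported (7 higher, 12 lower). The count was 7 with library sizes alone (0 higher), 1 with mtDNA genes left out, 554 with DESeq2's Wald test (168 higher), 7 without a filter, 95 with a mean of at least 5 CPM (0 higher), 75 with the replicate block, 12 with the 4 libraries compared, and 0 to 624 with 1 library left out. At 100 µM against control it was 0 as reported, with 573 genes at an unadjusted p under 0.05, 4 with DESeq2 size factors, 244 with DESeq2's Wald test, 22 with the replicate block, and 0 to 43 with 1 library left out. At 100 against 10 µM it was 91 as reported (24 higher, 67 lower), 0 with mtDNA genes left out, 383 with DESeq2's Wald test (165 higher), 3 without a filter (3 higher), 291 with a mean of at least 5 CPM (201 higher), 797 with the 4 libraries compared (631 higher), 136 with the replicate block (54 higher), 79 with DESeq2 size factors (6 higher), and 0 to 881 with 1 library left out. Same-numbered libraries did not deviate together (r of 0.00033 for control and 10 µM, 0.00315 for control and 100 µM and -0.0222 for 10 and 100 µM), so the number is not taken as a pairing. The scaling also moved the median log2 change of all genes. Under TMM, DESeq2 size factors and plain library sizes, in that order, it was -3.18, -2.66 and -2.64 at 10 µM against control, 0.35, -0.05 and 1.02 at 100 µM against control, and 3.52, 2.54 and 3.66 at 100 against 10 µM.

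OAZ1 at 10 µM against control turned to 0.23 with DESeq2 size factors, 0.12 with library sizes, 0.24 with DESeq2's Wald test, and 0.20 and 0.57 without the second control and the first 10 µM library (-1.52 to 0.57 over all left-out libraries). OAZ2 at 10 µM against control turned to -0.13 with a mean of at least 5 CPM and -0.64 without the second 10 µM library (-0.64 to 1.45 over all left out). At 100 µM against control OAZ2 turned to -0.0044 with DESeq2 size factors and -0.013 with the Wald test. AZIN1 in that comparison turned to -0.45 with each of these, -0.18 with the replicate block, and -0.64 and -1.38 without the first control and the second 100 µM library (-1.38 to 0.91 over all left out). At 100 against 10 µM OAZ2 turned to 1.06 without a filter, 1.64 with a mean of at least 5 CPM, 0.0033 with the 4 libraries compared, and 1.21 and 0.12 without the second 10 µM and the second 100 µM library (-0.88 to 1.21 over all left out). AZIN1 there turned to 0.32 with a mean of at least 5 CPM.

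The synthesis sum in the controls, 132 nuclear CPM, was 122 CPM of all counts, 147 without MALAT1 and NEAT1 and 162 without the 10 most abundant nuclear genes. In CPM of all counts the sums at 10 µM were 40.0 for synthesis, 154 for SAT1 and 330 for the antizyme control genes, and at 100 µM SAT1 was 2724 without the 10 most abundant genes.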

Other observations

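Outside the naming rule, 2 genes of the wider list were singled out after their values were seen. DHPS, the enzyme that begins the conversion of EIF5A lysine to hypusine with spermidine as the donor, had 21 and 1 counts in control libraries, 0 and 0 with 10 µM GenX, and 0 and 6 with 100 µM. Its pooled share at 100 µM was lower than in the controls, where it was 43.3 times as high (counting interval 17.01 to 130), an order opposite to that of SMS and AMD1. The first control library carried most of these counts: the libraries at 100 µM stood at 0 and 4.64 nuclear CPM, against 91.2 in the first control and 18.3 in the second. DHPS did not pass the filter on low counts and overlaps WDR83 on the other strand. AZIN2, an antizyme inhibitor related to AZIN1, had 0 and 0 counts under DMSO, 1 and 0 after 10 µM and 1 and 155 after 100 µM GenX. The 2 libraries at 100 µM therefore differed from each other in AZIN2 although both were deep, at 0.484 and 120 nuclear CPM.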
